A study of Mus musculus with 8 samples.

Results

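Wnt signalling in the gravid d18.0 mouse uterus was examined through 33 genes that encode Wnt ligands, their receptors, the secreted proteins that oppose or enhance them and part of the machinery inside the cell. A gene was included where the platform's symbol begins with Wnt, Fzd, Sfrp or Dkk and a digit, or is 1 of 13 further symbols, namely Frzb, Wif1, Lrp5, Lrp6, Axin1, Axin2, Ctnnb1, Lef1, Tcf7l2, Ror1, Ror2, Rspo1 and Rspo3. These 33 genes have 61 probe sets, out of 13119 genes and 23567 probe sets that carry a single symbol. Of the 13 further symbols 10 were measured, while Lef1, Lrp5 and Wif1 were not analysed here. Of 50 protein-coding genes in the RefSeq gene table (GRCm38.p6) that fit the rule, these 33 were measured. A gene's value is that of its brightest probe set, and all 33 of those reached a signal of 100 on 4 arrays or more. Across all 61 probe sets 60 passed this filter, and the exception is a second probe set of Fzd8.

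The Cox-1 KO group holds 4 females that lack Cox-1, the enzyme encoded by Ptgs1 that starts prostaglandin synthesis. Their background is a cross of C57BL/6 with Sv129 per the labels and with 129P2 per the methods, whereas the 4 wild-type females are C57BL/6, so strain background and the deletion cannot be told apart for any gene. All were pregnant, at gestational day 18 and 6 to 16 weeks old per the labels (the methods give 8 weeks as the lower limit), and each array holds uterine RNA of 1 mouse, taken after the fetuses, their membranes and the placentas had been removed. Signals come from Affymetrix mouse 430 2.0 arrays and were scaled by the authors to a target of 1000.

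Wnt proteins are secreted, lipid-modified ligands that bind Frizzled receptors at the cell surface. With the co-receptors Lrp5 and Lrp6 they keep beta-catenin, encoded by Ctnnb1, from being degraded, so that it enters the nucleus and acts with Tcf and Lef factors. With the co-receptors Ror1 and Ror2 they act without beta-catenin on cell shape and movement. Secreted Frizzled-related proteins bind the ligands, some Dickkopf proteins block Lrp5 and Lrp6, and R-spondins raise the amount of receptor at the surface. In the mouse uterus Wnt ligands are known for their part in duct patterning, gland formation and the decidual response to the embryo.

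The arrays were of like overall level, with medians of 731 to 757 and pairwise correlations of 0.944 to 0.982. The probe set that the study's additional file assigns to Ptgs1 had signals of 88, 122, 76 and 136 on the Cox-1 KO arrays and of 7048, 10610, 10756 and 10508 on the wild-type arrays, which fits the labels. Smooth muscle and uterine stroma markers were present on every array, with summed signals of 259664 to 281487 in Cox-1 KO and 244534 to 280001 in wild-type for the 6 muscle genes and of 69767 to 77313 in Cox-1 KO and 74453 to 77545 in wild-type for the 6 stromal genes. The 5 epithelial markers summed to 97813 to 117915 in Cox-1 KO and 79127 to 100304 in wild-type, and 1 of them, Krt18, had an unadjusted p under 0.05. The 10 genes of yolk sac and fetal liver set arrays apart, summing to 40213 to 372853 in Cox-1 KO and 30310 to 264116 in wild-type, with 7 of the 10 at an unadjusted p under 0.05. Their lead gene Apoa1 had signals of 73950, 631, 65189 and 56615 in Cox-1 KO and of 183, 481, 505 and 55059 in wild-type, so that 3 Cox-1 KO arrays and 1 wild-type array were high in it. Rbp4, 1 of the 10 and of those 7, did not follow Apoa1. Its signals were 34613, 34145, 36878 and 39535 in Cox-1 KO and 26827, 30136, 32440 and 32401 in wild-type. It thus makes up most of the low sums. Trophoblast markers (2 of 5 measured) summed to 14234 to 17989 in Cox-1 KO and 6143 to 19043 in wild-type, and the decidual gene Prl8a2 had signals of 20769 to 43884 in Cox-1 KO and 15065 to 26846 in wild-type. A fit with Apoa1 as a covariate was therefore run for every gene.

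No Wnt gene differed between Cox-1 KO and wild-type uterus past the threshold. With limma and Benjamini-Hochberg adjustment over 26444 probe sets, 0 of the 33 genes had an adjusted p under 0.05, against 3 probe sets (0.0113%) in the whole comparison, and the adjusted p-values of the 33 lay between 0.530 and 0.985. At an unadjusted p under 0.05 there were 2 of 33 genes (6.06%), Wnt4 on the higher side and Frzb on the lower side, where 8.81% of all probe sets reached it, 3.69% higher and 5.12% lower in Cox-1 KO. That share is no larger than the background. The groups overlapped on the brightest probe set of every Wnt gene, where 4.41% of all probe sets did not overlap. By the methods' t-test 0 of 33 genes had a p of 0.05 or less with a 1.5-fold ratio, against 0.862% of all probe sets, and the ratios of mean signals lay between 0.789 and 1.54.

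The changes were centred near 0. The median log2 fold change, Cox-1 KO minus wild-type, was 0.01 over the 33 genes and -0.03 over all probe sets, with 18 genes above 0 and 15 below and a range of -0.33 to 0.56. Counted by probe set, as the background is, the 60 Wnt probe sets past the filter had a median of -0.03. Of these 26 lay above 0 and 34 below. By class, 6 of 8 ligands, 5 of 12 receptors and co-receptors, 3 of 7 antagonists, 0 of 2 R-spondins and 4 of 4 intracellular genes lay above 0, where 57.5% of all probe sets lay below it. The class medians were 0.16 for ligands, -0.04 for receptors, -0.02 for antagonists, -0.09 for R-spondins and 0.08 for intracellular genes. The precision of these arrays bounds what could have been missed. The 95% interval of the fold change lay within 1.5-fold in either direction for 25 of the 33 genes, and within 2-fold for 31, the others being Fzd10 and Wnt2.

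**Figure D1:**
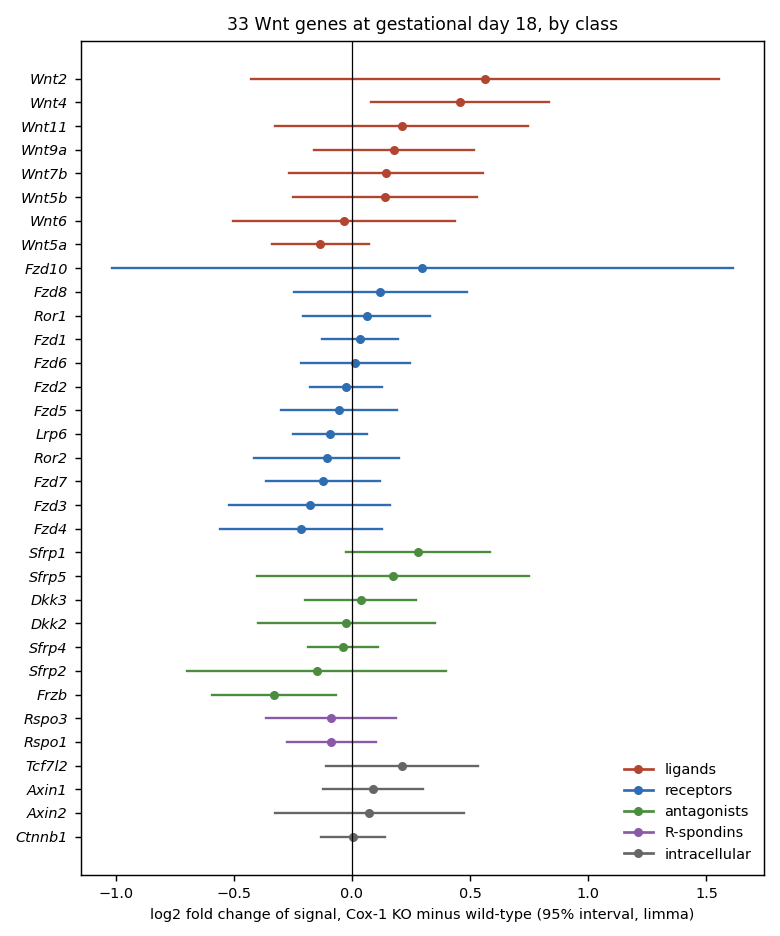
Log2 fold change of the 33 Wnt genes (x axis, Cox-1 KO minus wild-type, 4 arrays a group), with points for the estimate and lines for the 95% interval from limma, grouped by class. The intervals of Wnt4 above 0 and of Frzb below 0 are the ones that leave 0 out, before adjustment for the number of probe sets.

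Wnt4, a ligand needed for female duct development and for decidualization in the mouse, lies on chromosome 4 (137277635 to 137299501, GRCm38.p6). Its brightest probe set had signals of 928, 888, 676 and 765 in Cox-1 KO and of 526, 670, 760 and 448 in wild-type. The groups overlapped through the third array of each, and 3 Cox-1 KO arrays lay above every wild-type array. The means were 814 ± 115 in Cox-1 KO and 601 ± 140 in wild-type (SD, n = 4 each), a ratio of 1.35. The log2 fold change was 0.46 (SE 0.171, 95% interval 0.08 to 0.83) with an adjusted p of 0.531 in limma, and the exact permutation test over the 70 assignments of arrays gave p = 0.0571, two-sided.

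The second Wnt4 probe set had signals of 748, 608, 550 and 729 in Cox-1 KO and of 458, 395, 508 and 513 in wild-type. Here every Cox-1 KO array lay above every wild-type array, as for 1.5% of all probe sets. Its log2 fold change was 0.49 (SE 0.138) with an adjusted p of 0.423 in limma, and the exact permutation p was 0.0286, the smallest that 4 against 4 arrays allow. It is the only one of the 60 probe sets of Wnt genes with the groups apart in this direction. The log2 fold change of the brightest Wnt4 probe set was 0.63 (adjusted p = 0.716, limma) with Apoa1 as covariate. Within the 4 arrays high in Apoa1 it was 0.81 and among the 4 others 0.46, each of which leaves 1 group with a single array.

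Frzb, also called Sfrp3, encodes a secreted protein that binds Wnt ligands and keeps them from their receptors, and it lies on chromosome 2 (80411970 to 80447396, GRCm38.p6). Its brightest probe set had signals of 1358, 1575, 1326 and 1328 in Cox-1 KO and of 2176, 1844, 1551 and 1513 in wild-type. The groups overlapped through the second Cox-1 KO array alone, which lay above 2 of the wild-type arrays. The means were 1397 ± 120 in Cox-1 KO and 1771 ± 308 in wild-type (SD, n = 4 each). The log2 fold change was -0.33 (SE 0.120, 95% interval -0.59 to -0.07) with an adjusted p of 0.530 in limma, and the exact permutation p was 0.0857, two-sided.

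The second Frzb probe set had signals of 732, 780, 762 and 776 in Cox-1 KO and of 1169, 819, 812 and 813 in wild-type. The groups did not overlap, as for 2.91% of all probe sets with Cox-1 KO lower, but 3 of the wild-type arrays lay close above the Cox-1 KO arrays and the first wild-type array stood far above the rest. Its log2 fold change was -0.23, with an adjusted p of 0.623 in limma. Without the first wild-type array the log2 fold change of the brightest probe set was -0.23. With Apoa1 as covariate it was -0.16 (adjusted p = 0.962, limma), and it was -0.18 within the 4 arrays high in Apoa1 and -0.22 among the 4 others. Frzb is the only 1 of the 33 genes on chromosome 2, which also holds Ptgs1, and the starts of these genes are 44.2 Mb apart. The RNA comes from mixed tissue, the uterus without the pieces fixed for sections. Fewer cells of a type and less RNA per cell therefore cannot be told apart for this or any other gene.

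**Figure D2:**
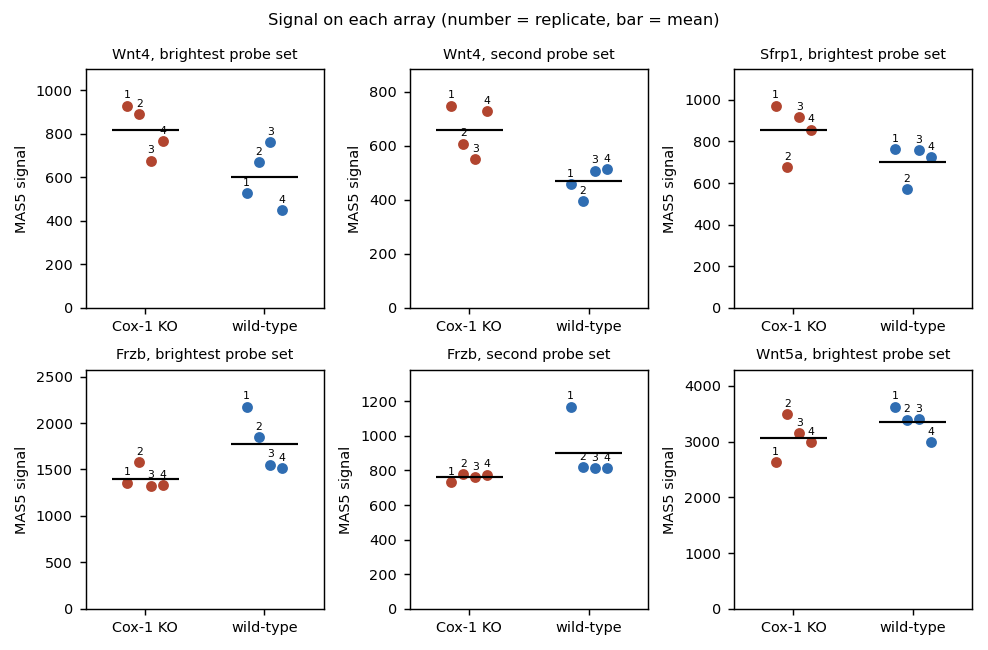
MAS5 signal (y axis, linear, from 0) on each Cox-1 KO and wild-type array for both probe sets of Wnt4 and of Frzb and for the brightest probe sets of Sfrp1 and Wnt5a, with points numbered by replicate and bars at the group mean. For the second Wnt4 probe set the Cox-1 KO arrays lie at 550 to 748 and the wild-type arrays at 395 to 513, whereas the groups of Sfrp1 and Wnt5a overlap.

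The sequences in front of Wnt4 and Frzb are shown because these are the members with the smallest p-values, on opposite sides of 0. Each is the 250 bases upstream of the gene's start in the RefSeq promoter table (GRCm38.p6), written in the direction of the gene, and capitals mark GC boxes (GGGCGG on either strand), the site of Sp1-type factors. The Wnt4 window is chr4:137277385-137277634 on the plus strand, and the Frzb window is chr2:80447397-80447646 on the minus strand.
Wnt4: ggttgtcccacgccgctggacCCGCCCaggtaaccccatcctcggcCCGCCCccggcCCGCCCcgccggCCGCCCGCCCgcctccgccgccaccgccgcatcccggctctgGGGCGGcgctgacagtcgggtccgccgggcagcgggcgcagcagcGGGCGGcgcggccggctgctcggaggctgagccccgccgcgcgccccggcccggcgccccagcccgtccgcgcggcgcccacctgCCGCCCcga
Frzb: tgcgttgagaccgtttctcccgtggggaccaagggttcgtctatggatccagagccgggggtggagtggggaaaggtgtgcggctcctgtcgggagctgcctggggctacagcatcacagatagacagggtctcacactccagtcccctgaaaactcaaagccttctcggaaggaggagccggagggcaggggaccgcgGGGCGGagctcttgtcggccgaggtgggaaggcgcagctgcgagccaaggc
The Wnt4 window is 85.2% G and C, the highest among the 26 windows found for 21 of the 33 genes, and holds 8 GC boxes, some of which share bases. The Frzb window is 64.4% G and C and holds 1 GC box, 51 bases before the start. GC boxes were found in 20 of the 26 windows of Wnt genes (76.9%), against 32.7% of all 32851 windows of this length, whose median content of G and C is 52.4% where that of the Wnt genes is 68.0%. The Tcf/Lef motif CTTTGAT, on either strand, was in the windows of Wnt11 and Wnt5b (7.69% of the windows, against 3.21% of all), and the Ets motif CCGGAA in those of Fzd10 and Wnt11 (7.69%, against 3952 of the 32851). The estrogen response element GGTCANNNTGACC was in 0 of the 26 windows and in 0.0639% of all. Neither the Wnt4 nor the Frzb window holds the Tcf/Lef or the Ets letters. These matches are descriptions of the letters alone.

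Among the other ligands, Wnt5a, which acts largely without beta-catenin through Ror2 and is needed for uterine gland formation, had signals of 2630, 3492, 3148 and 2986 in Cox-1 KO and of 3626, 3395, 3402 and 2989 in wild-type. The groups overlapped, and the first Cox-1 KO array was the lowest. Its log2 fold change was -0.13 (SE 0.093, adjusted p = 0.696, limma), and its 4 probe sets ranged from -0.33 to -0.03. With Apoa1 as covariate the value was 0.01. The part of yolk sac transcripts in the Wnt5a value was not tested.

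Wnt2, a ligand known for vessel growth in the mouse placenta, had signals of 226, 143, 217 and 63 in Cox-1 KO and of 62, 158, 76 and 125 in wild-type. These values are close to the filter of 100 and scatter within both groups, and the log2 fold change of 0.56, although the highest of the 33, has an SE of 0.450 (adjusted p = 0.737, limma). Without the fourth Cox-1 KO array it was 0.96, and without the first wild-type array 0.34. Wnt9a had signals of 530, 528, 472 and 562 in Cox-1 KO and of 404, 403, 627 and 444 in wild-type. The third wild-type array was the highest of all 8, and the other 3 were lower than any Cox-1 KO array, for a log2 fold change of 0.18 (SE 0.153), which was 0.33 without the third wild-type array and 0.11 without the first or the second. Wnt11, Wnt7b and Wnt5b had log2 fold changes of 0.21, 0.14 and 0.14, and Wnt6, a ligand of the uterine stroma in decidualization, of -0.03, and for each of these the groups overlapped. For Wnt11 and Wnt7b the values with Apoa1 as covariate were -0.02 and -0.01.

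The Frizzled receptors gave 4 log2 fold changes above 0 and 5 below, with a median of -0.03. Fzd4, the receptor through which Norrin as well as Wnt ligands act on vessels, had signals of 472, 637, 823 and 557 in Cox-1 KO and of 698, 691, 776 and 672 in wild-type. The first, the second and the fourth Cox-1 KO arrays were lower than all of the wild-type arrays and the third was higher than all of them. The log2 fold change was -0.22 (SE 0.156, adjusted p = 0.705, limma), and all 3 Fzd4 probe sets were below 0. Without the first Cox-1 KO array the value was -0.09, and without the third Cox-1 KO array -0.36. The 3 endothelial markers summed to 6225 to 7653 in Cox-1 KO and 6774 to 7583 in wild-type, and did not move together, with log2 fold changes of -0.29 for Pecam1, 0.22 for Cdh5 and -0.17 for Kdr. For Pecam1 the groups did not overlap, at 2500 to 3227 in Cox-1 KO and 3306 to 3667 in wild-type (adjusted p = 0.423, limma), as for 2.91% of all probe sets. The groups of Cdh5 and of Kdr overlapped. The part of endothelial cells in the Fzd4 values was not tested.

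Fzd3, a receptor of planar polarity, had signals of 316, 376, 297 and 416 in Cox-1 KO and of 465, 362, 351 and 408 in wild-type, a log2 fold change of -0.18 (SE 0.155). Fzd7 had signals of 1525, 1582, 1250 and 1485 in Cox-1 KO and of 1507, 1420, 1907 and 1540 in wild-type, a log2 fold change of -0.12 (SE 0.110), which was -0.03 without the third wild-type array. In both genes the groups overlapped over part of their range, and their other probe sets also lay below 0. Fzd1 had signals of 5210, 6268, 5124 and 5355 in Cox-1 KO and of 5443, 5591, 5310 and 5038 in wild-type, a log2 fold change of 0.03 with a 95% interval of -0.13 to 0.20.

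Fzd10 was the least stable of the 33, with signals of 364, 169, 214 and 487 in Cox-1 KO and of 62, 197, 564 and 407 in wild-type. The group means of 309 in Cox-1 KO and 308 in wild-type were nearly equal on the linear scale, while the log2 fold change was 0.30 (SE 0.598), since the first wild-type array was so low. Without that array it was -0.33, and with Apoa1 as covariate -0.42. The within-group SD of log2 signal was 1.11 for Fzd10 and 0.07 for Fzd2, the extremes of the 33 genes, with a median of 0.21 for the 33 and 0.18 for all probe sets. Fzd2, Fzd5, Fzd6 and Fzd8 had log2 fold changes between -0.06 and 0.12.

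Lrp6, the co-receptor of the beta-catenin branch, had signals of 2403, 2389, 2068 and 2217 in Cox-1 KO and of 2487, 2422, 2335 and 2418 in wild-type. The third and the fourth Cox-1 KO arrays were lower than any wild-type array, and the log2 fold change was -0.09 (SE 0.071, adjusted p = 0.724, limma), with a 95% interval of -0.25 to 0.06. Ror1 and Ror2, the receptors of the other branch, had log2 fold changes of 0.06 and -0.11, and the probe sets of each disagreed in sign.

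Of the antagonists besides Frzb, Sfrp1, which binds Wnt ligands outside the cell, had signals of 972, 678, 919 and 857 in Cox-1 KO and of 763, 570, 757 and 724 in wild-type. In Cox-1 KO 3 arrays lay above every wild-type array, and the second array was the lowest in each group. The log2 fold change was 0.28 (SE 0.138, 95% interval -0.02 to 0.59, adjusted p = 0.584, limma), and it was 0.15 with Apoa1 as covariate and 0.18 without the second wild-type array. Its other probe sets gave 0.31 and -0.17, so the direction is not shared by all 3. Sfrp4, a relative of Sfrp1 expressed in uterine stroma, had signals of 22483, 25374, 22346 and 25530 in Cox-1 KO and of 22643, 24268, 27080 and 24236 in wild-type, with a log2 fold change of -0.04 (95% interval -0.18 to 0.11). Sfrp2 and Sfrp5 had log2 fold changes of -0.15 (SE 0.249) and 0.17 (SE 0.262), and Dkk2 and Dkk3, of the Dickkopf family, of -0.02 and 0.04.

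The R-spondins, which act through Lgr receptors, were both slightly below 0. Rspo1 had signals of 2228, 2113, 2201 and 1913 in Cox-1 KO and of 2311, 2525, 2066 and 2098 in wild-type, with a log2 fold change of -0.09 (SE 0.086). Rspo3 had signals of 885, 1220, 1014 and 898 in Cox-1 KO and of 1190, 1114, 1044 and 904 in wild-type, with a log2 fold change of -0.09 (SE 0.125). The groups overlapped in both, and the value of Rspo3 was 0.12 with Apoa1 as covariate.

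Inside the cell, Ctnnb1, which encodes beta-catenin, had signals of 38483, 35752, 37530 and 39500 in Cox-1 KO and of 33586, 40746, 37364 and 39249 in wild-type. The means were 37816 ± 1594 in Cox-1 KO and 37736 ± 3094 in wild-type (SD, n = 4 each), and the log2 fold change of 0.01 had a 95% interval of -0.13 to 0.14. Beta-catenin is controlled mainly through the stability of its protein, which these arrays do not measure. Axin2, a scaffold of the degradation complex that is itself switched on by Wnt signalling, had signals of 746, 838, 606 and 1034 in Cox-1 KO and of 664, 988, 620 and 788 in wild-type. The groups overlapped throughout, with a log2 fold change of 0.07 (SE 0.182, 95% interval -0.33 to 0.47, adjusted p = 0.928, limma).

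Axin1, the constitutive scaffold, had signals of 1383, 1196, 1225 and 1103 in Cox-1 KO and of 1034, 1248, 1193 and 1135 in wild-type, a log2 fold change of 0.09 (SE 0.096). Tcf7l2, a nuclear partner of beta-catenin, had signals of 1022, 704, 860 and 892 in Cox-1 KO and of 918, 608, 762 and 725 in wild-type, a log2 fold change of 0.21 (SE 0.146, adjusted p = 0.695, limma). Both groups of Tcf7l2 had their lowest value on the second array and their highest on the first, and 1 of its 3 probe sets was below 0.

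Over the 33 genes arrays of the same genotype stood apart from each other. The third Cox-1 KO array had the lowest signal of the 8 for 13 genes (39.4%), where it was lowest for 13.4% of all probe sets, and the first Cox-1 KO array had the highest for 9 genes (27.3%, against 14% of all). The fourth wild-type array was highest for 0 of the 33 and the third wild-type array lowest for 0. Of the 18 genes with more than 1 probe set past the filter, 11 had all probe sets on the same side of 0 and 7 did not, namely Ctnnb1, Fzd1, Fzd6, Ror1, Ror2, Sfrp1 and Tcf7l2. With Apoa1 as covariate 1 of 33 genes (3.03%, Wnt4) had an unadjusted p under 0.05, against 5.36% of all probe sets. The covariate turned the sign of Ctnnb1, Fzd10, Ror2, Rspo3, Sfrp2, Wnt5a, Wnt7b and Wnt11, with Ror2 and Sfrp2 at 0.00 in that fit. It took Sfrp1 to 0.15, Wnt2 to 0.36, Tcf7l2 to 0.14, Fzd7 to -0.07, Rspo1 to -0.05 and Sfrp4 to -0.01, all nearer 0 than without it. It took Wnt6 to -0.27, Dkk2 to -0.11, Fzd2 to -0.07, Fzd1 to 0.14, Fzd6 to 0.11, Ror1 to 0.18 and Dkk3 to 0.13, all farther from 0. The part of yolk sac transcripts in these values was not tested.

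**Figure D3:**
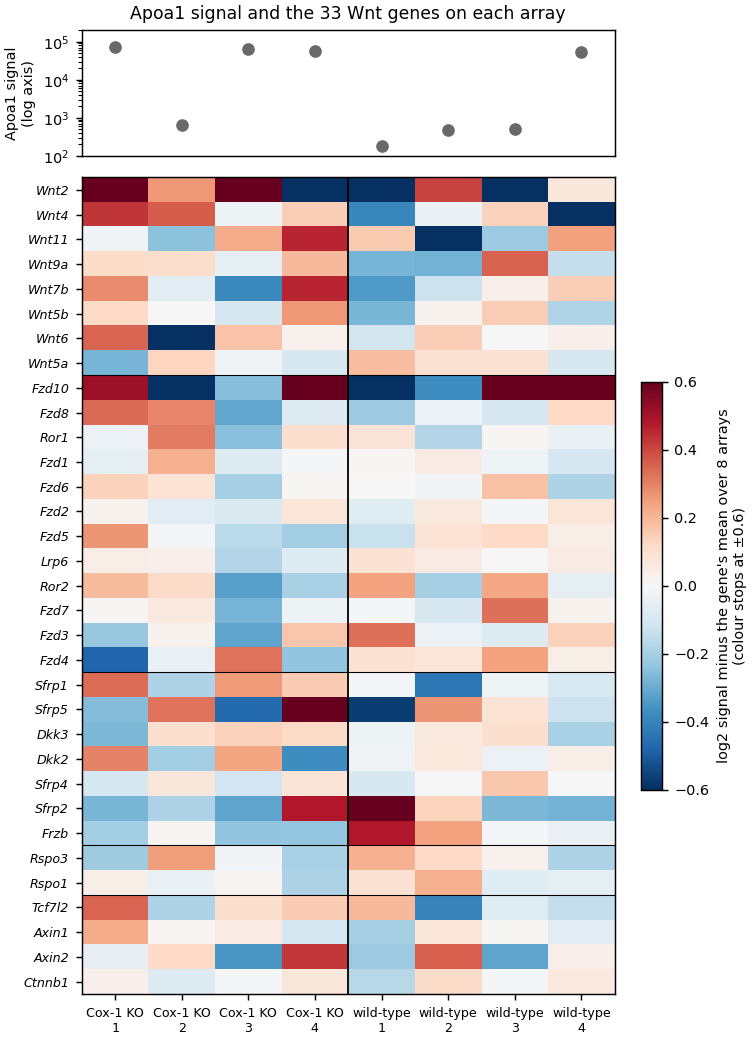
Apoa1 signal (top, log axis) and log2 signal of the 33 Wnt genes minus each gene's mean over the 8 arrays (rows by class, colour scale stopping at 0.6 either way), with the 4 Cox-1 KO arrays left of the 4 wild-type arrays. The third Cox-1 KO column is lowest for 13 genes, and no row other than those of Wnt4 and Frzb has an unadjusted p under 0.05.

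A wider list of 66 genes of the pathway, covering secretion, receptor turnover, planar polarity, the cytoplasmic complex and nuclear factors, had 49 genes measured, all past the filter. None was called by limma at an adjusted p under 0.05, 2 (4.08%) had an unadjusted p under 0.05, against 8.81% of all probe sets, and the median log2 fold change was 0.01. Of the 49 genes 27 lay above 0 and 22 below, where 57.5% of all probe sets lay below. Wls, the carrier that takes Wnt ligands to the cell surface, had signals of 5933, 6084, 5676 and 5934 in Cox-1 KO and of 6592, 6938, 6686 and 6009 in wild-type. All but the fourth wild-type array lay above every Cox-1 KO array, and the log2 fold change was -0.15 (SE 0.059, adjusted p = 0.538, limma). With Apoa1 as covariate it was -0.09. Porcn, the enzyme that attaches the lipid to Wnt ligands, had a log2 fold change of -0.14 (SE 0.137).

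Gpc3, a glypican that binds Wnt ligands at the surface of fetal cells, had signals of 5451, 517, 4303 and 3401 in Cox-1 KO and of 573, 462, 436 and 3143 in wild-type. The arrays high in it are the same 4 that are high in Apoa1. Its log2 fold change was 1.71 (SE 0.764, adjusted p = 0.561, limma), and 0.10 with Apoa1 as covariate. Cby1, which binds beta-catenin and blocks its partners, had signals of 247, 386, 426 and 476 in Cox-1 KO and of 502, 545, 409 and 569 in wild-type, a log2 fold change of -0.43 (SE 0.201). Daam2, of the planar polarity branch, had signals of 690, 442, 620 and 484 in Cox-1 KO and of 526, 379, 395 and 459 in wild-type, a log2 fold change of 0.34 (SE 0.168). The groups of both overlapped, and their adjusted p-values in limma were 0.572 and 0.591.

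A list of 34 genes known as targets of beta-catenin in one tissue or another had 21 genes measured and 20 past the filter. None was called by limma at an adjusted p under 0.05, 2 (10%) had an unadjusted p under 0.05, near the 8.81% of all probe sets, and the median log2 fold change was -0.02. Of the 20 genes 7 lay above 0 and 13 below, where 57.5% of all probe sets lay below. Axin2 and Sfrp2 of this list are also among the 33 Wnt genes, and Apcdd1 and Znrf3 are also in the wider list. Ccnd1, which encodes cyclin D1 of the cell cycle, had signals of 5275, 5290, 4515 and 4722 in Cox-1 KO and of 6017, 5845, 5828 and 5646 in wild-type. The groups did not overlap, with Cox-1 KO lower, as for 2.91% of all probe sets, and the log2 fold change was -0.24 (SE 0.066, adjusted p = 0.421, limma). Id2, an inhibitor of helix-loop-helix factors, had signals of 5279, 5616, 5544 and 6711 in Cox-1 KO and of 5172, 4061, 4903 and 5069 in wild-type. The groups did not overlap, with Cox-1 KO higher, as for 1.5% of all probe sets, and the log2 fold change was 0.27 (SE 0.095, adjusted p = 0.526, limma). Ccnd1 and Id2 lay on opposite sides of 0. Both respond to other signals too, and the part of Wnt signalling in their values was not tested.

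Msx1, a homeobox factor of uterine receptivity, had signals of 271, 345, 419 and 506 in Cox-1 KO and of 518, 504, 446 and 499 in wild-type. In Cox-1 KO 3 arrays were lower than any wild-type array, and the log2 fold change was -0.39 (SE 0.180, adjusted p = 0.571, limma). Mmp7, matrilysin of the uterine epithelium, had signals of 6185, 10516, 9735 and 7084 in Cox-1 KO and of 8899, 11937, 13875 and 8917 in wild-type, a log2 fold change of -0.39 (SE 0.184, adjusted p = 0.574, limma). Its groups overlapped, and the value was -0.18 with Apoa1 as covariate. Among the classic readouts, Nkd1 had a log2 fold change of 0.01 (SE 0.132) and Znrf3 of -0.01 (SE 0.106), beside the 0.07 of Axin2.

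**Figure D4:**
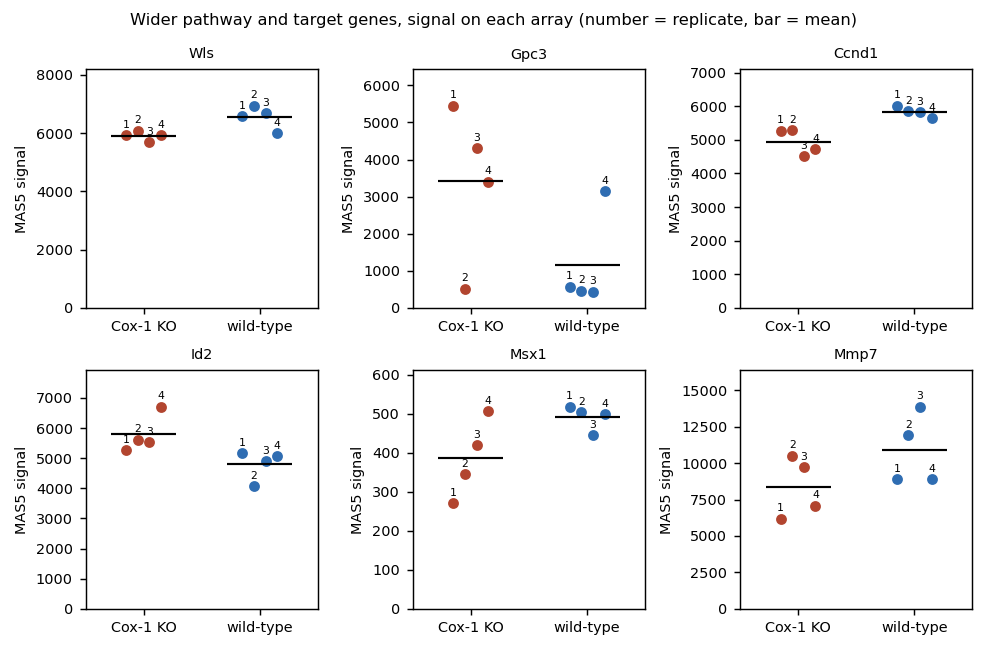
MAS5 signal (y axis, linear, from 0) on each array for Wls, Gpc3, Ccnd1, Id2, Msx1 and Mmp7, with Cox-1 KO left of wild-type, points numbered by replicate and bars at the group mean. Ccnd1 at 4515 to 5290 in Cox-1 KO and 5646 to 6017 in wild-type and Id2 at 5279 to 6711 in Cox-1 KO and 4061 to 5172 in wild-type do not overlap, while the high arrays of Gpc3 are those high in Apoa1.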

How the data were processed

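Uterine RNA of 8 mice was hybridized to 8 arrays. The authors computed a signal intensity per probe set in MAS5 (Affymetrix Microarray Suite), with arrays scaled to 1000. The deposited intensity values cover 28000 probe sets, without detection calls. How these were selected is not given in the sources used here. Signals under 1 were set to 1 and taken to log2. The 60 array controls were left out, and 26444 probe sets that reached a signal of 100 on 4 arrays or more were compared with limma 3.58.1 in R 4.3.3 (moderated variances, trend on mean signal), Benjamini-Hochberg adjusted. Replicates are separate mice. The fit was tested on simulated data with independent noise for each probe set and the same spread in both groups. Differences that many genes of an array share, such as those that go with Apoa1, were not simulated. Gene names come from GEO's platform table, except for Ptgs1, and positions from RefSeq. Named are every member by class, with array values for the 12 with the smallest p, the brightest probe set and the largest changes of each class and Axin2, and for the 4 smallest p of each wider list. Members, lists and the Apoa1 covariate were chosen with earlier results of these data known. Fits split by Apoa1 signal were added after seeing the data. Summaries used Python 3.11.15. Replicate numbers were not taken as pairs. Each array is 1 mouse, and the number of arrays limits the precision. The authors' additional file, which holds fold changes, served to name the Ptgs1 probe set.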

Additional observations from a re-analysis of the deposited data

Results flagged for a closer look

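The 54 groups of 4 arrays examined were those of the brightest probe sets of named genes. Of these 2 held an array far from the other 3, and chance alone marks about 1 in 20 groups. For Frzb the second Cox-1 KO array had a signal of 1575, and the other Cox-1 KO arrays had 1326 to 1358. Without it the log2 fold change of Frzb was -0.39. The second Frzb probe set was not among the 54 groups. Its first wild-type array had 1169, and the other wild-type arrays had 812 to 819. For Gpc3 the fourth wild-type array had a signal of 3143, and the other wild-type arrays had 436 to 573. That array is also the wild-type array high in Apoa1, at 55059, and the part of yolk sac transcripts in the Gpc3 signal was not tested beyond the covariate.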

How the results depend on the processing

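No Wnt gene was called under any of 21 other settings, and the median of the 33 lay between -0.02 and 0.03. Over the 21 settings Wnt4 stayed above 0 (0.33 to 0.63) and Frzb below (-0.40 to -0.16). Leaving out single arrays gave 0 to 3 Wnt genes at an unadjusted p under 0.05 (0 without the first wild-type array, 1 without the fourth wild-type or the first Cox-1 KO array), 0 to 3 of the wider list (0 without the second wild-type and 1 without the first Cox-1 KO array), 2 to 4 targets (4 without the third Cox-1 KO array) and 2 to 25 probe sets called, with 25 without the first wild-type array, and 9 without the second or the fourth Cox-1 KO array. Main counts were 2, 2, 2 and 3. The Apoa1 covariate gave 1 Wnt gene, 1 target and 10 probe sets, and the methods' t-test 0 Wnt genes. The fits split by Apoa1 gave 0 Wnt genes among the 4 arrays low in it and 1 among the 4 high in it, but 1 group holds a single array in each, assumed to vary like the other group, so these counts say nothing about stability. The wider list gave 1, with a median of -0.024, for the mean of all probe sets, and 0 without the variance trend. Probe sets called were 18 with array weights, 10 with 32 added, 11 with median centring, 6 in a robust fit and 12 with signals floored at 100. The cause was not tested.

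Signs turned with the covariate for Ctnnb1 (-0.057), Fzd10 (-0.42), Rspo3 (0.12), Wnt5a (0.0069), Ror2 (0.0035), Sfrp2 (0.00096), Wnt11 (-0.021) and Wnt7b (-0.0051). Ctnnb1 was also at -0.0051 with array weights, -0.022 for the mean of probe sets, -0.042 with quantile normalization, and -0.033 and -0.039 on its other probe sets. Fzd1 was at -0.018 for the mean of probe sets and -0.071 on its other probe set, Sfrp1 at -0.17 and Tcf7l2 at -0.043 on another. Leaving out single arrays moved Axin2 between -0.056 and 0.20, Ctnnb1 between -0.049 and 0.044, Fzd1 between -0.031 and 0.066, Fzd10 between -0.33 and 0.73 and Sfrp4 between -0.075 and 0.011, which turned their signs. Without a sign turned, it also moved Fzd4 between -0.36 and -0.094, Fzd7 between -0.17 and -0.033, Fzd3 between -0.26 and -0.099, Rspo1 between -0.13 and -0.031, Rspo3 between -0.18 and -0.030, Lrp6 between -0.12 and -0.049, Wnt2 between 0.34 and 0.96, Wnt9a between 0.11 and 0.33, Sfrp1 between 0.18 and 0.39, Tcf7l2 between 0.11 and 0.31, Axin1 between 0.030 and 0.14 and Wnt5a between -0.20 and -0.063.

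Same-numbered arrays correlated at -0.254 to 0.219, over 0.1 in 2 of 4 pairs, so the numbers were not taken as pairs. Arrays with different numbers correlated at -0.605 to 0.391, so these values cannot exclude pairing. With a replicate block 0 Wnt genes were called and 3 had an unadjusted p under 0.05, 3 probe sets were called, and Wnt4 had an adjusted p of 0.590 (limma). It ended no call.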
